A study of Mus musculus with 22 samples.

Results

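The 9 genes described here encode the DNA-binding subunits of the transcription factor NF-kB (Nfkb1, Nfkb2, Rel, Rela and Relb) and inhibitors of NF-kB, several of which it switches on in return (Nfkbia, Nfkbib, Nfkbiz and Tnfaip3). They were taken by name from the 21887 protein-coding genes of the gene table. A gene's locus was its body in GRCm38 with 20 kb on each side, and a peak of open chromatin belonged to it where its summit fell inside. OMNI-ATAC-seq, in which a transposase cuts and tags accessible DNA, was run on 20 to 30 mg of frozen tissue from adult male mice of the C57BL/6J strain, treated as a model of Gulf War Illness. Every animal carried the same exposures: 7 days of corticosterone (CORT) in the water they drank, diisopropyl fluorophosphate (DFP, an organophosphate that blocks acetylcholinesterase) on day 8, and intermittent CORT over 5 weeks. No group without CORT and DFP is used here. The animals were then given saline and collected at 6 h (2 animals), or lipopolysaccharide (LPS, a bacterial component that sets off inflammation) and collected at 6, 12 or 24 h (3 animals each). Hippocampus and frontal cortex of the same 11 animals gave 22 libraries. With saline at 6 h only, LPS and time of collection cannot be told apart at 12 and 24 h.

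NF-kB is held in the cytoplasm by inhibitor proteins until a signal such as LPS, acting through Toll-like receptor 4, activates a kinase that marks the inhibitor for destruction. The freed dimers enter the nucleus and bind short DNA elements called kappaB motifs. Among their best known targets are the genes of their own inhibitors, which closes a feedback loop, and genes of NF-kB subunits. In brain, microglia and endothelial cells are the cells best known for a strong NF-kB response to peripheral LPS.

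RefSeq promoter windows of GRCm38.p6, from 250 bases before to 50 bases after a transcription start, were at hand for 6 of the 9 genes (Nfkb2 with 3 starts, Rel, Rela, Nfkbia, Nfkbib, and Tnfaip3 with 2 starts). The 5 windows that hold a kappaB motif and whose start lay under a peak are shown first. The motif was found in 4 of the 6 genes with a window. The window of Nfkbib follows, which holds no such motif and had the strongest peak. Capitals mark matches to the 10-base kappaB motif on either strand, with overlapping matches run together. Positions below count from the transcription start.
Nfkb2 upstream start, chr19:46304487-46304786, plus strand: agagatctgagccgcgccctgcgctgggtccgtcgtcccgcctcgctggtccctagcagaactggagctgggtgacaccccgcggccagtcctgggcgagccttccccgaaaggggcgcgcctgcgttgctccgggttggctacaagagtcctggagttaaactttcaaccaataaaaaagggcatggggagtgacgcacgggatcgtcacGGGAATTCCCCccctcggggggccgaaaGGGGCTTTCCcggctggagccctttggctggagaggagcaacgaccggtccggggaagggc
Nfkb2 second start, chr19:46305445-46305744, plus strand: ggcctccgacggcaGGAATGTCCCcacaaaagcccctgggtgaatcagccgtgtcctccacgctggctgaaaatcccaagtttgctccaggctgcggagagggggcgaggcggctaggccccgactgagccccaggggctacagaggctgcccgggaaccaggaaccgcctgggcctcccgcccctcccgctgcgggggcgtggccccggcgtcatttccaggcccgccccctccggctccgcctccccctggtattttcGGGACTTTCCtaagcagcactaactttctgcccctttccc
Rel, chr11:23770920-23771219, minus strand: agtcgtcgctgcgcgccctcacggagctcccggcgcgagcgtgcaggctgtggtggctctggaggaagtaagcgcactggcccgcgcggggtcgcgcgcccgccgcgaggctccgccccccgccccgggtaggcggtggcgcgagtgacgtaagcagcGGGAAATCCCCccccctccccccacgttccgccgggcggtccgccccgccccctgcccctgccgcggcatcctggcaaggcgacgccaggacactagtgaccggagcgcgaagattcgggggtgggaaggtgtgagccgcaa
Nfkbia, chr12:55492598-55492897, minus strand: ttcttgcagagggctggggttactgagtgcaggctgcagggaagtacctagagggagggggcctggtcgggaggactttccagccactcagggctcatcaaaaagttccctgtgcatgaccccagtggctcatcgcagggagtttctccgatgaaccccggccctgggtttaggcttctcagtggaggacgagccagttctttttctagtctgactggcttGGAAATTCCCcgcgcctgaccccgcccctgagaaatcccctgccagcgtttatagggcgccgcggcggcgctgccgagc
Tnfaip3 upstream start, chr10:19015361-19015660, minus strand: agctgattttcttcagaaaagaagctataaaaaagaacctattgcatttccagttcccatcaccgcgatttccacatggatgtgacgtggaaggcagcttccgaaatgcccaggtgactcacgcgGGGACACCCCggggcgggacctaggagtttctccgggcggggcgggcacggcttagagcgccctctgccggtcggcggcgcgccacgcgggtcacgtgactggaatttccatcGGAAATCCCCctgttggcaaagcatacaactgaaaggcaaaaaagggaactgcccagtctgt
Nfkbib, chr7:28766595-28766894, minus strand: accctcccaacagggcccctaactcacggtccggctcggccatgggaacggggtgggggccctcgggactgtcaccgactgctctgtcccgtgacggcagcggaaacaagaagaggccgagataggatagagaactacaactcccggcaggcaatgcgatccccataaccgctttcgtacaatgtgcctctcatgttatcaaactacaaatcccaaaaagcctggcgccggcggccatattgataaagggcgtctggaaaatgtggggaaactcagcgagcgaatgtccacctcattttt

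Of the 6 genes with a promoter window, 4 (66.7%) had a kappaB match, against 9.55% of the 27025 gene symbols in the promoter table. By window, 8.46% of all 32851 had a match. The upstream promoter of Nfkb2, whose product p100 is processed to p52, held GGGAATTCCC, which reads as a match on both strands, from -39 to -30, an overlapping match from -38, and GGGGCTTTCC from -11 to -2. The second Nfkb2 window held GGGACTTTCC from 10 to 19 after the start. The same site is 225 bases before the start of the third. In Rel, which encodes the subunit c-Rel, GGGAAATCCC lay from -92 to -83. In Nfkbia, which encodes the inhibitor IkappaB-alpha, the match lay from -29 to -20 (GGGAATTTCC on the opposite strand). Tnfaip3, the gene of the ubiquitin-editing enzyme A20, had matches from -125 to -116 and from -12 to -3. All of these lay under a peak in all 22 libraries. A further Nfkb2 match, from -236 to -227 of the second start, was under a peak in 2 libraries. The letters of the motif do not occur in the windows of Rela and Nfkbib.

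The starts themselves were open in both tissues and every challenge group. A peak covered the start in all 22 libraries at Nfkb2 (the upstream and the second start), Rel, Rela, Nfkbia, Nfkbib, Nfkbiz and Tnfaip3 (the upstream start). For comparison, 53.3% of the 21263 starts of protein-coding genes in the promoter table were covered in all 22. The third Nfkb2 start and the downstream Tnfaip3 start were covered in no library. For Nfkb1 and Relb the strand was not given in the sources used here, so their gene ends were examined. The end with higher coordinates was under a peak in 20 libraries at Nfkb1 and in 22 at Relb, and the other end in none. At Nfkb1, 2 windows within 1026 bp inside that end held a peak in all 22.

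The strength of these peaks differed widely between genes. The Nfkbib start, of the gene of IkappaB-beta, ranked highest, with 0.515% to 3.08% of the library's peaks stronger (median 1.01%) and a fold over background, as the authors gave it, of 6.05 to 10.9. Next came Rel (1.70% to 5.92% stronger, fold 7.96 to 9.89) and Tnfaip3 (3.03% to 9.89% stronger, fold 6.72 to 10.6). The starts of Rela (5.22% to 12.3%), Relb at its upper end (4.54% to 13.9%) and Nfkbia (6.18% to 11.8%) overlapped each other in rank. The upper end of Nfkb1 varied most, with 7.67% to 91.1% of peaks stronger (median 12.2%) in the 20 libraries with a peak there. Lower in median rank were Nfkbiz, the gene of the atypical nuclear inhibitor IkappaB-zeta (16.0% to 33.9% stronger), and the Nfkb2 starts (21.3% to 49.2% and 19.2% to 57.7%). Peak width varied too, with a median of 1182.5 bp at Rel and 253.5 bp at the second Nfkb2 start. The summit nearest the start lay close to it at Nfkbib (34 bases before to 8 after) and Nfkbia (16 to 52 bases after). At the upstream Nfkb2 start the nearest summit lay 178 to 81 bases before it, upstream of its kappaB matches. The same peak held further summits, whose positions are not given here. The 2 tissues overlapped in rank at every start.

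**Figure D1:**
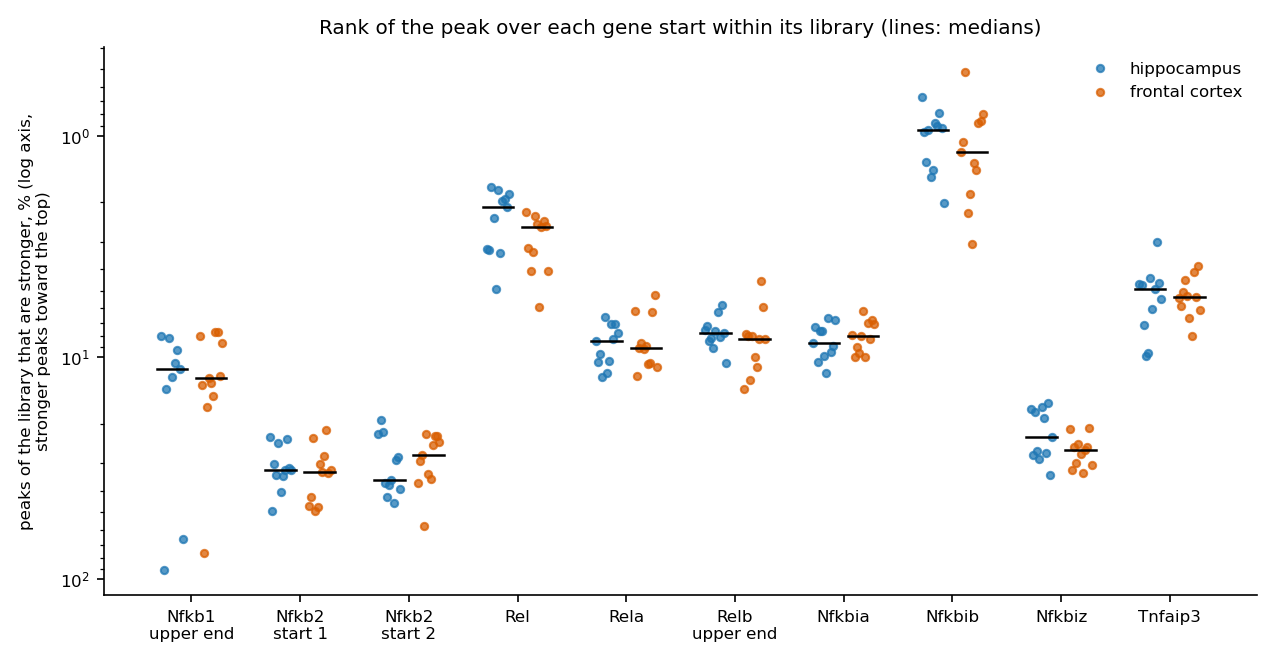
For each gene start the points give, per library, the percentage of that library's peaks with a stronger signal (log axis, strongest at the top), with hippocampus left of frontal cortex and lines at the medians. Nfkbib lies between 0.515% and 3.08% and the Nfkb2 starts between 19.2% and 57.7%, and the tissues overlap at every start. The upper end of Nfkb1 has 9 hippocampus points, since 2 libraries had no peak there.

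To compare the rest of each locus, windows reaching 250 bp to either side of a summit were laid over all libraries, and a window counted as present where its overlap with a peak of the library reached 50% of the shorter of both. The 9 loci spanned 600474 bp and held 213 of 563375 windows. A peak in all 22 libraries was found at 57 of the 213 (26.8%), against 18.4% of all windows and 19.2% of windows at protein-coding loci. At the other extreme, 46 windows held a peak in 1 library only. Nfkb1, the longest of the genes at 107315 bp and the source of p105 and p50, had 53 windows, 14 of them in all 22 libraries. Nfkb2 had 23 and 10, Rel 14 and 3, Rela 19 and 4, and Relb 22 and 9. Among the inhibitors, Nfkbia had 17 and 4, Nfkbib 22 and 6, Nfkbiz 25 and 5, and Tnfaip3 18 and 2. The flanks are shared with other genes: 23 of the 57 windows lay in a neighbour, among them 8 of the 10 at Nfkb2 (mostly in Psd). Only Tnfaip3 had no other gene of the gene table within its locus.

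Tissues were set against each other first, over all challenge groups. Of 106 windows tested, 20 (18.9%) were present in more hippocampus libraries and 8 (7.55%) in more frontal cortex libraries (Fisher's exact test per window, 11 libraries against 11, two-sided, Benjamini-Hochberg adjusted over all 327334 windows tested). The share over all windows was 18.3% towards hippocampus, 12.2% towards frontal cortex and 30.5% in either direction. At the loci of all protein-coding genes 27% were called, and at these 9 loci 26.4%, a share near the background. None of the called windows was a gene start. The starts under a peak in all 22 libraries lay in windows present in all 22, which were not tested between tissues. Inside the 9 gene bodies lay 9 of the 28, and 5 lay in a neighbouring gene. A tissue difference in bulk tissue can come from the share of cells of a type or from accessibility per cell, which cannot be told apart. Adjusted p-values in the next 4 paragraphs come from that test.

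**Figure D2:**
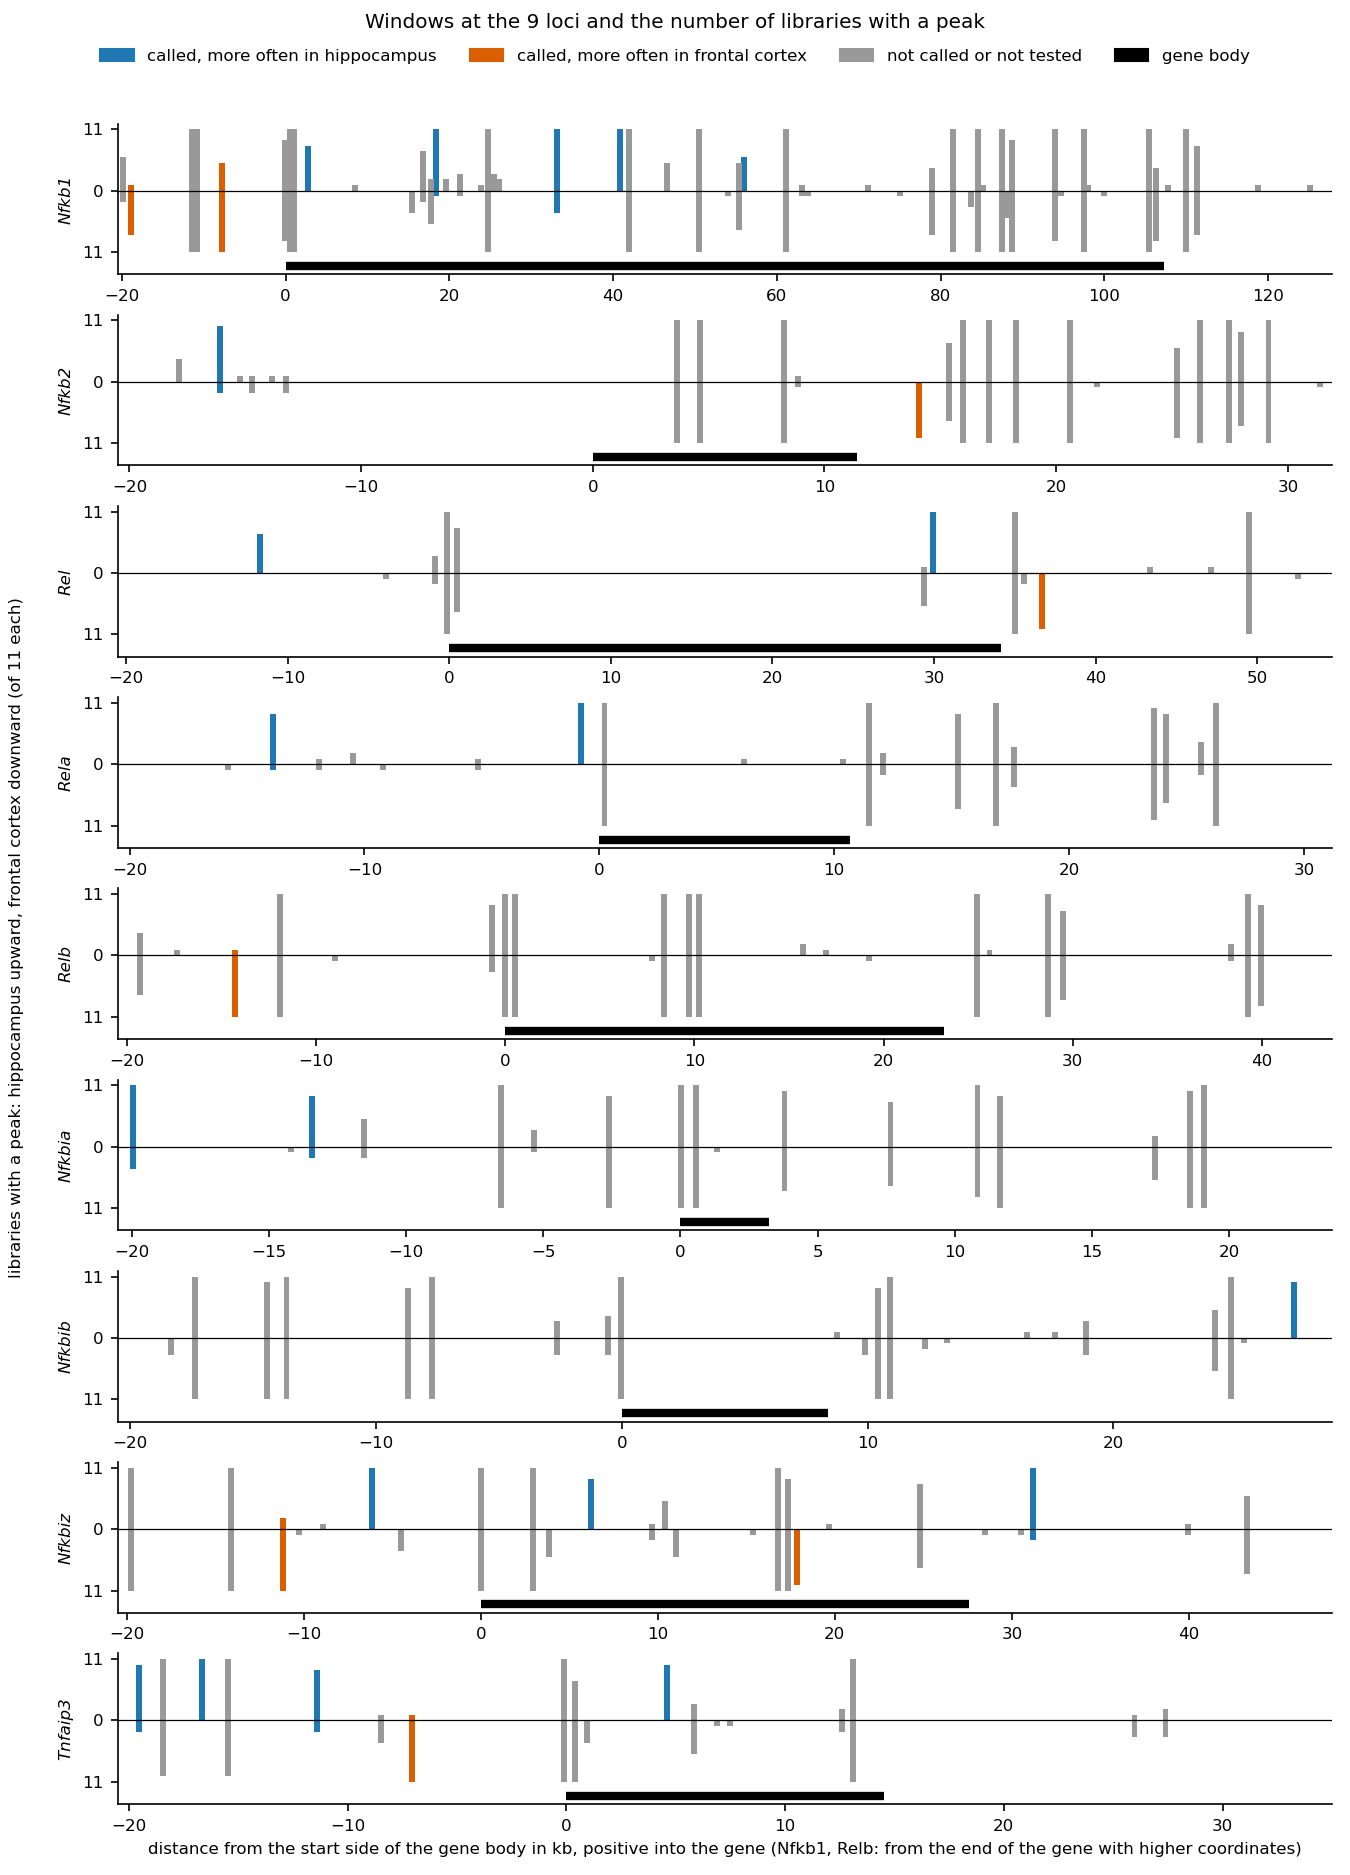
Each panel maps the windows of a locus by distance in kb from the start side of the gene body (Nfkb1 and Relb: from the end with higher coordinates). Bar height is the number of libraries with a peak, hippocampus upward and frontal cortex downward, of 11 each. Blue bars mark the 20 windows called towards hippocampus and orange bars the 8 called towards frontal cortex. Grey bars were not called or not tested, and the starts carry grey bars in both tissues.

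Among the subunits, Nfkb1 (chr3:135584655-135691969) had 26 tested windows, the most of the 9. Of these 7 were called, 5 towards hippocampus, all inside the gene, and 2 towards frontal cortex, both beyond its upper end. A window 40862 bp inside the upper end (centre 135651107) held a peak in 11 hippocampus libraries and 0 frontal cortex libraries (adjusted p = 4.32e-05). Its fold over background ran from 4.72 to 8.85. The window 18389 bp inside that end was present in 11 hippocampus libraries and 1 frontal cortex library (adjusted p = 0.000297), with a fold of 5.18 to 7.85 in hippocampus. A window 33123 bp inside that end held a peak in all 11 hippocampus libraries and in 4 frontal cortex libraries, 2 of 3 at 12 h, 2 of 3 at 24 h and none of the saline or 6 h libraries (adjusted p = 0.0156). The fold of these peaks was 3.92 to 7.01 in hippocampus and 2.14 to 2.73 in the 4 frontal cortex libraries. With the animal as a block, the call at that window was lost. The window 2785 bp inside was present in 8 hippocampus libraries and 0 frontal cortex libraries (adjusted p = 0.00521). The fifth and both cortical windows at Nfkb1 lost their call with the animal as a block and when any of 6 or 7 of the animals was left out.

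At Rel (chr11:23736847-23770969, minus strand), a window in the gene body, 4194 bp from the lower end (centre 23741041), was present in 11 hippocampus libraries and 0 frontal cortex libraries (adjusted p = 4.32e-05, fold 2.31 to 5.43). A window 11706 bp upstream of the start was present in 7 and 0 (adjusted p = 0.0156), a call lost with the animal as a block. Downstream of the gene, 2578 bp beyond its lower end, the direction turned, with 0 hippocampus libraries and 10 frontal cortex libraries (adjusted p = 0.000297). Rela (chr19:5637442-5648134, plus strand) encodes p65, the subunit that carries the main activating domain of the common p50:p65 dimer. The window 797 bp before its gene body (centre 5636645) was present in 11 hippocampus libraries and 0 frontal cortex libraries (adjusted p = 4.32e-05). The window lies next to the start, and the peak over the start was 1016 to 1718 bp wide in hippocampus and 1053 to 1415 bp wide in frontal cortex. With any overlap of 1 bp counted as presence, that window was present in 11 and 9 libraries and the call was lost. A second Rela window, 13873 bp before the gene, was present in 9 hippocampus libraries and 1 frontal cortex library (adjusted p = 0.00904).

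At Nfkb2 and Relb, the 2 subunits of the alternative NF-kB pathway, 2 of 9 and 1 of 7 tested windows were called. The share was 27% at the loci of all protein-coding genes. The called windows of both genes all lay in neighbouring genes. At Nfkb2 (chr19:46300994-46312400, plus strand), the window 16072 bp before the gene body, inside Gbf1, was present in 10 hippocampus libraries and 2 frontal cortex libraries (adjusted p = 0.00904). The window 2672 bp beyond the gene, inside Psd, was present in 0 and 10 (adjusted p = 0.000297). At Relb (chr7:19606217-19629438) the single called window lay inside Clptm1, 14289 bp beyond the upper end, and was present in 1 hippocampus library and 11 frontal cortex libraries (adjusted p = 0.000297).

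The inhibitors held 10 of the 20 windows towards hippocampus and 3 of the 8 towards frontal cortex. Their tested windows numbered 10 at Nfkbia, 10 at Nfkbib, 14 at Nfkbiz and 12 at Tnfaip3. At the loci of all protein-coding genes, 27% of tested windows were called. Tnfaip3 (chr10:19000910-19015410, minus strand) had 5 called windows among 12 tested, 4 of them in the 20 kb before its start. The window 16659 bp upstream (centre 19032069) was present in 11 hippocampus libraries and 0 frontal cortex libraries (adjusted p = 4.32e-05, fold 4.85 to 8.89). Closer to the gene, 7066 bp upstream (centre 19022476), the pattern was opposite, with a peak in 1 hippocampus library and 11 frontal cortex libraries (adjusted p = 0.000297). The lone hippocampus peak, from a saline animal, had a fold of 3.67 over background, and the cortical peak a fold of at least 5.05 with a median of 7.32. The windows 19551 bp upstream (10 and 2) and 4625 bp inside the gene (10 and 0) were called towards hippocampus as well (adjusted p = 0.00904 and 0.000297). A window 11376 bp upstream (9 and 2, adjusted p = 0.0337) lost its call with the animal as a block.

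Nfkbiz (chr16:55811375-55838954, minus strand) also had 5 called windows, among 14 tested. The strongest was 3594 bp beyond its lower end, downstream of the gene (centre 55807781), with a peak in 11 hippocampus libraries at a fold of 6.88 to 11.3 and in 2 frontal cortex libraries, both at 24 h after LPS, at a median of 2.37 (adjusted p = 0.00145). Upstream, 6123 bp before the start and inside Nxpe3, a window was present in 11 and 0 libraries (adjusted p = 4.32e-05, fold 3.54 to 8.62), and a window 6235 bp inside the gene in 9 and 0 (adjusted p = 0.00145). Towards frontal cortex were a window 17888 bp inside the gene (0 and 10, adjusted p = 0.000297) and a window 11159 bp upstream (2 and 11, adjusted p = 0.00145). Nfkbia (chr12:55489409-55492647, minus strand) had a window 19955 bp upstream of its start (centre 55512602) with a peak in 11 hippocampus libraries and 4 frontal cortex libraries (adjusted p = 0.0156), and a window 13410 bp upstream in 9 and 2 (adjusted p = 0.0337). Both calls were lost with the animal as a block. Nfkbib (chr7:28758251-28766644, minus strand) had 1 called window, 18954 bp beyond its lower end, present in 10 hippocampus libraries and 0 frontal cortex libraries (adjusted p = 0.000297).

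The called windows differed in how strong their peaks were. Once only peaks with a -log10 q of at least 5 were kept, 13 of the 20 windows towards hippocampus were called again and 1 of the 8 towards frontal cortex, the Tnfaip3 window 7066 bp upstream. With only the 50000 strongest peaks of each library, 4 and 1 were called again. These were the Nfkb1 window 18389 bp inside the gene, the Rela window next to the start, the downstream Nfkbiz window, and the Tnfaip3 windows 16659 and 7066 bp upstream. Both rules also called windows outside the 28. The q limit called 22, of which 14 were among the 28, and the second rule 14, of which 5 were. With the q limit, the Nfkb1 window centred at 135586515 was present in 3 hippocampus and 11 frontal cortex libraries. The Nfkb1 window centred at 135703462 was present in 11 and 1. At the Rela window the highest hippocampus fold, 6.50, equalled that of the peak over the start, which both tissues share. With 1 bp of overlap its call was lost. Leaving out any 1 of the 11 animals left 23 of the 28 calls in place.

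**Figure D3:**
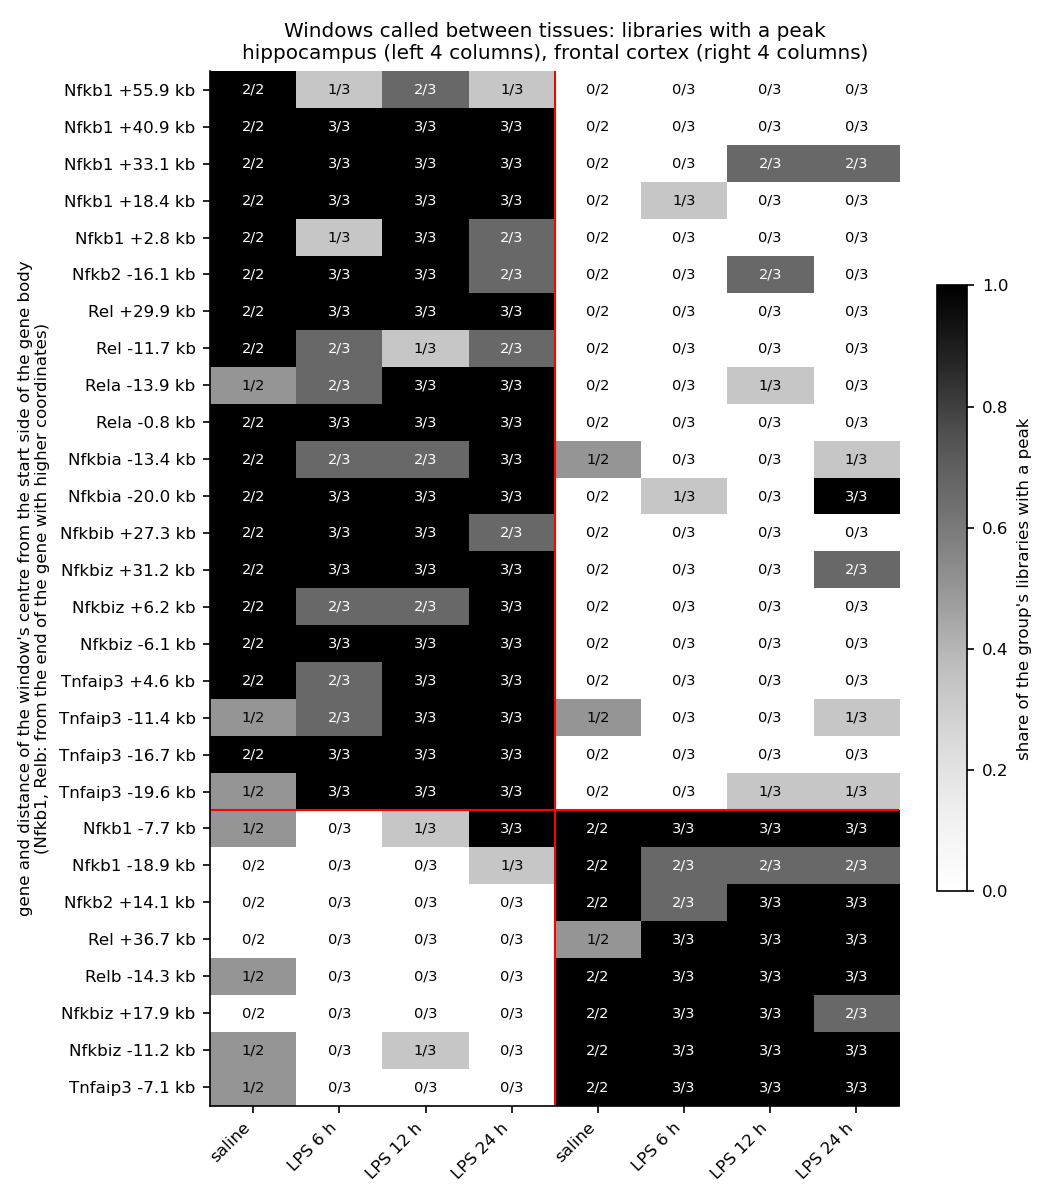
Rows are the 28 windows called between tissues (upper 20 towards hippocampus, lower 8 towards frontal cortex), named by gene and distance in kb from the start side of the gene body. Columns are the groups, and each cell gives the libraries with a peak out of the libraries in the group. Most rows are filled alike in saline and LPS groups, while the Nfkbia row at -20.0 kb is empty in frontal cortex saline (0 of 2) and full at 24 h (3 of 3).

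The number of peaks at a locus, as distinct from which windows were open, was compared per 100000 peaks of the library with limma on log2 values (pseudocount 0.5) over 18787 genes. Over all those genes 44.1% were called between tissues, 16.8% higher and 27.3% lower in hippocampus, and the median log2 difference was -0.056. Of the 9 genes, 2 were called, both lower in hippocampus, but with only the 50000 strongest peaks of each library both differences changed sign (0.11 at Nfkb2 and 0.016 at Nfkbib). Nfkb2 had 11 to 16 peaks in hippocampus (median 13) and 13 to 16 in frontal cortex (median 14), or 5.04 ± 0.564 per 100000 in hippocampus, against 5.78 ± 0.492 in frontal cortex (SD, n = 11 each). Its log2 difference was -0.19 (SE 0.062, limma adjusted p = 0.0169), with a lower share in hippocampus in 10 of 11 animals. Nfkbib had 8 to 13 peaks in hippocampus (median 10) and 9 to 12 in frontal cortex (median 10). Per 100000 peaks of the library this was 2.61 to 4.57 in hippocampus and 3.68 to 5.87 in frontal cortex (log2 difference -0.22, SE 0.080, limma adjusted p = 0.0281, lower in 10 of 11 animals). The ranges of the tissues overlapped at both genes. Nfkbiz (log2 difference -0.15, adjusted p = 0.0823), Rel (-0.15, adjusted p = 0.135) and Tnfaip3 (0.18, adjusted p = 0.142) did not pass limma's test.

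Hippocampus libraries held 228266 to 307140 peaks, against 204561 to 280888 in frontal cortex. Without the scaling to that number, no gene of the 9 was called. Leaving out 1 animal at a time gave 0 to 3 called genes, with 0 when saline replicate 2 or LPS 6 h replicate 3 was left out and 1 when LPS 12 h replicate 1, LPS 12 h replicate 3 or LPS 24 h replicate 3 was. The median log2 difference of the 9 was -0.091. The mean profile of the 9 loci over the 22 libraries was most like those of Nutf2 (Pearson's r = 0.874), Trak1 and Ints1 (both 0.843), a likeness over libraries that share depth and tissue. The profile itself followed the number of peaks in the library (r = -0.68).

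**Figure D4:**
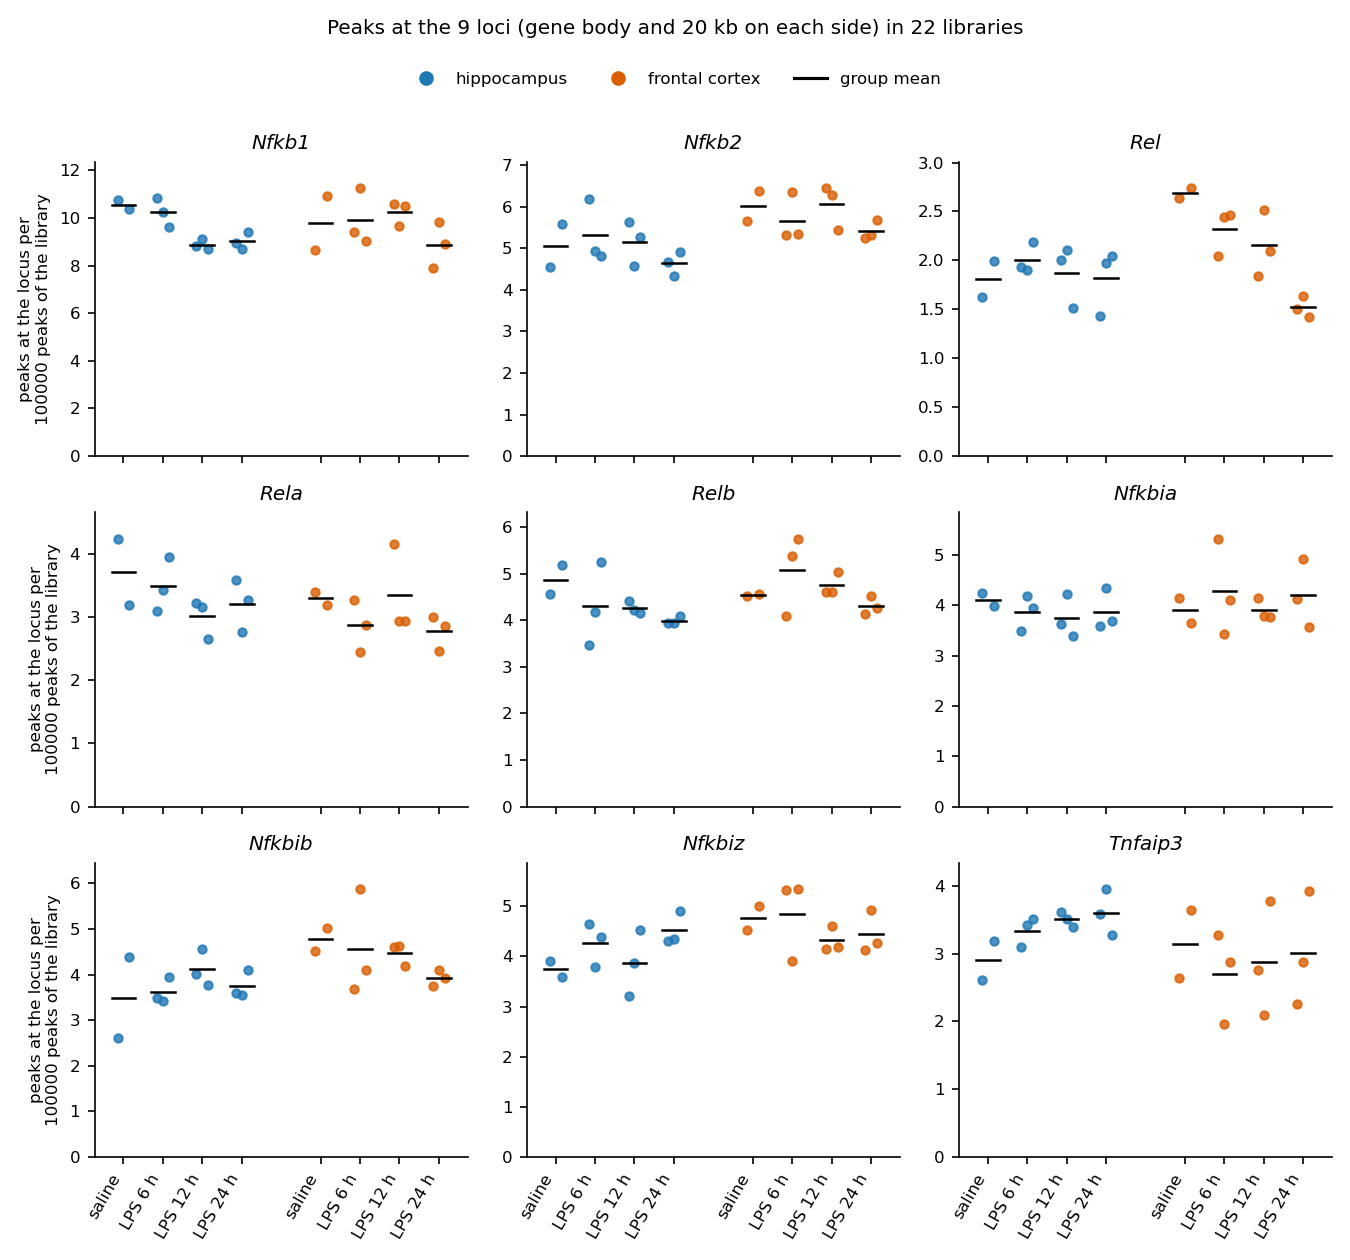
Each panel gives the peaks at a locus per 100000 peaks of the library, by group, with a point per library (hippocampus left, frontal cortex right) and a line at the group mean. Rel in frontal cortex has 1.42 to 1.64 at 24 h after LPS and 2.64 and 2.74 in saline, with no overlap. Nfkb1 and Tnfaip3 in hippocampus also have no overlap between saline and 12 or 24 h. The same holds at other loci, among them Relb in hippocampus at 12 and 24 h and Rela, Relb and Nfkbib in frontal cortex at 24 h. The share of such separations over all genes was not computed.

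The second comparison, LPS against saline within a tissue, asked whether the number of peaks at a locus, as a share of the library's peaks, changed after LPS. A peak found in every library adds the same count however strong it is. This test therefore cannot show whether a start that was already open became more or less open. None of the 9 genes passed limma's test in any of the 6 contrasts, and at an unadjusted p under 0.05 there were 2 of 54, against 7.14% over all genes and the same contrasts. Over all 18787 genes the share called was 0 in hippocampus at 6 and 12 h, 0.0106% at 24 h, 0 in frontal cortex at 6 and 12 h, and 0.0692% at 24 h. With the 3 LPS times in 1 test, none of the 9 was called in either tissue (limma F-test, background 0 in hippocampus and 0.0266% in frontal cortex), with 1 unadjusted p under 0.05 among 18 (7.69% over all genes). The difference of the LPS effect between tissues was called at no gene (background 0 at each time), with 1 unadjusted p under 0.05 among 27 for the 9 genes (5.04% over all genes).

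Rel was the member with the lowest p. In frontal cortex its locus held 7 and 6 peaks in the saline animals, 5, 5 and 6 at 6 h, 4, 6 and 5 at 12 h, and 4, 4 and 4 at 24 h after LPS. Per 100000 peaks this was 1.42 to 1.64 at 24 h and 2.64 and 2.74 in saline. All 3 libraries at 24 h lay below both saline libraries (log2 difference -0.66, SE 0.17, 95% interval -1.01 to -0.30, limma adjusted p = 0.147). With only the 50000 strongest peaks of each library the difference turned to 0.42. In hippocampus Rel had 4 to 6 peaks in every group, and the difference of the effects was 0.66 (SE 0.24, limma adjusted p = 0.790). The Rel window 29359 bp into the gene held a peak in no frontal cortex library at 24 h, in 1 of 3 at 12 h, in 3 of 3 at 6 h and in both saline libraries. None of these peaks reached a -log10 q of 5. A window 2578 bp beyond the lower end went the other way, present in 9 of 9 LPS and 1 of 2 saline frontal cortex libraries. It reached that q in 1 frontal cortex library. Nfkb1 in hippocampus had 8.88 ± 0.229 peaks per 100000 at 12 h (SD, n = 3) and 10.6 ± 0.266 in saline (SD, n = 2), without overlap (log2 difference -0.24, SE 0.11, limma adjusted p = 0.737). With so few libraries, LPS and saline groups without overlap occurred at further loci as well, and their share over all genes was not computed.

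Tnfaip3, a classic early target of NF-kB, had 2.61 and 3.19 peaks per 100000 in the saline hippocampus, 3.09 to 3.51 at 6 h, 3.40 to 3.62 at 12 h and 3.27 to 3.95 at 24 h. The 12 h and 24 h libraries all lay above both saline libraries, with mean differences of 0.24 and 0.27 on the log2 scale (limma adjusted p = 0.886 and 0.826). Separations of this kind also occurred at other loci. In frontal cortex the Tnfaip3 values ran from 1.96 to 3.92 after LPS and were 2.64 and 3.65 in saline, so the groups overlapped. Nfkbia, whose transcription is the textbook readout of NF-kB activity, had 3.40 to 4.34 peaks per 100000 after LPS in hippocampus, against 3.99 and 4.23 in saline. In frontal cortex it had 3.42 to 5.32 after LPS, against 3.65 and 4.15 in saline. The groups overlapped in both tissues.

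The authors' own differential regions gave 3 sites at these loci. The authors' deposited table for frontal cortex at 24 h lists a region of 210 bp upstream of Nfkbia as more open after LPS (chromosome 12, 55512501 to 55512710, FDR 0.0047), 19854 bp from the gene. The authors gave this region no gene label, and it is placed at Nfkbia here because it overlaps the 20 kb flank. Peaks were found there in 3 of 3 frontal cortex libraries at 24 h, in 1 of 3 at 6 h, in 0 of 3 at 12 h and in 0 of 2 saline libraries. All 11 hippocampus libraries had a peak at the same place, with a fold of 3.32 to 7.16, against 2.88 to 4.11 in the 4 frontal cortex libraries. It is the window called between tissues above. In hippocampus the -log10 q of this peak was 22.6, 24.4 and 6.64 at 12 h, against 9.61 and 14.1 in saline. Those values overlapped, and no hippocampus region at the locus is in the authors' deposited tables.

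The authors' deposited table for frontal cortex at 24 h also lists a region of 60 bp in an intron of Nfkbiz as more open after LPS (chromosome 16, 55827901 to 55827960, FDR 0.0071). Nfkbiz is needed for a delayed set of NF-kB target genes. Peaks were present in 3 of 3 frontal cortex libraries at 24 h (fold 2.96 to 5.18), in 2 of 3 at 6 h (1.95 and 4.20), in 0 of 3 at 12 h and in 0 of 2 saline libraries. No hippocampus library had a peak there. At this contrast the authors' deposited tables place a region at 2 of these 9 loci, both more open after LPS, and at 12.7% of all 21887 loci in either direction. The remaining region in the authors' deposited tables, of 160 bp in an intron of Sirt2 4107 bp from Nfkbib, is listed as more open in hippocampus at 12 h (chromosome 7, 28770751 to 28770910, FDR 0.0272). None of the 22 libraries had a peak there. For that contrast the authors' deposited tables place a region at 8.87% of all loci. At the other contrasts, where none of the 9 has a region, the authors' deposited tables give 0.0685% (hippocampus 6 h), 0.571% (hippocampus 24 h), 1.39% (frontal cortex 6 h) and 0.178% (frontal cortex 12 h).

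**Figure D5:**
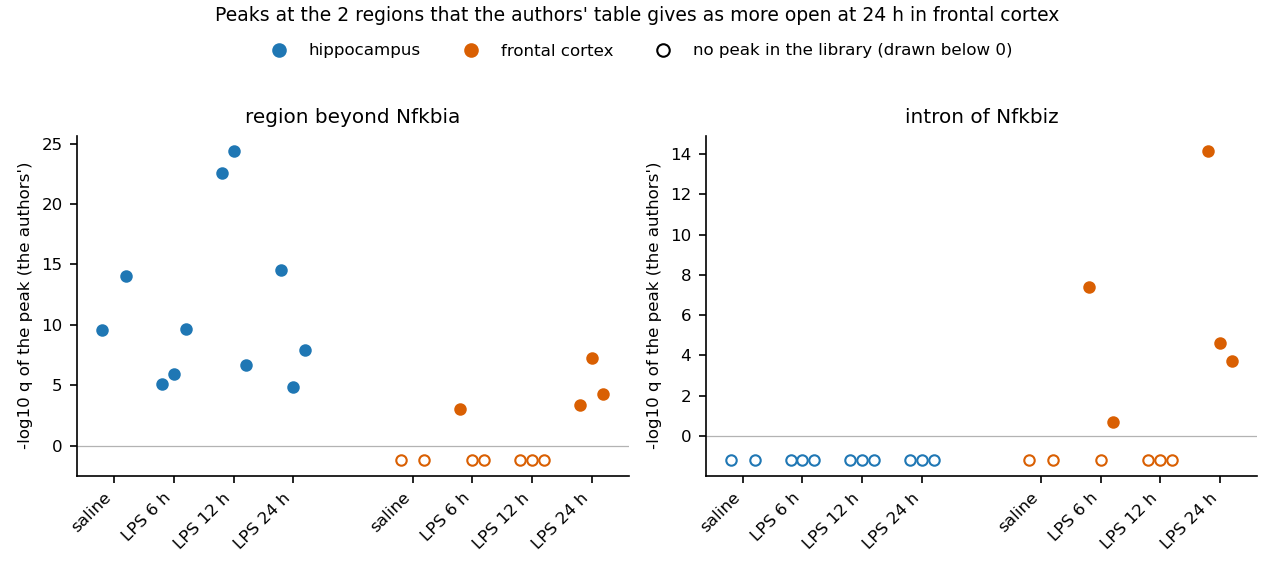
Points give the authors' -log10 q of the peak in each library at the region upstream of Nfkbia (left) and in the Nfkbiz intron (right), by group, with open circles for libraries without a peak. Frontal cortex has peaks in all 3 libraries at 24 h and none in saline at both regions, and hippocampus has a peak in all 11 libraries at the Nfkbia region and in none at the Nfkbiz region.

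Windows that switched completely numbered 0 to 5 per contrast and direction. After LPS at 24 h in frontal cortex, 2 of 126 windows with a peak in at least 2 of the 5 libraries were present in all 3 LPS libraries and no saline library, against 3.95% of all such windows. They were the 2 regions just described, upstream of Nfkbia and in Nfkbiz. In the same contrast 5 of 126 were absent from all 3 LPS libraries and present in both saline libraries, at Nfkbib (2 windows), Rel, Rela and Nfkbiz, against 1.08% of all windows. The Nfkbib window of these that lies beside the start, 569 bp before it, was present in all 11 frontal cortex libraries with 1 bp of overlap, so its loss rests on the overlap rule. In hippocampus the only gain was at Nfkbib at 24 h, where a window 15756 bp beyond the lower end was present in 3 LPS libraries and no saline library (background 1.47%). With any overlap of 1 bp counted, that window was present in all 11 hippocampus libraries, so the gain rests on the overlap rule. Losses in hippocampus numbered 2 of 118 at 6 h (background 2.04%), 2 of 124 at 12 h (1.83%) and 2 of 125 at 24 h (2.12%). A window of Nfkb1 centred 26035 bp inside the upper end was among the losses at every time and held a peak in no library other than the 2 saline ones. Gains at 6 and 12 h were 0 in hippocampus (background 0.696% and 1.70%) and 0 in frontal cortex (0.900% and 1.25%), and losses in frontal cortex were 2 of 116 at 6 h (1.60%) and 3 of 118 at 12 h (1.65%). The contrasts share their saline libraries, so a window missing from LPS libraries at several times is counted each time.

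Other genes of the pathway were examined in the same fits. Of 34 upstream and regulatory genes (kinases, adaptors, receptors and further inhibitors), 14 were called between tissues, 3 higher and 11 lower in hippocampus, with a median log2 difference of -0.092. Over all genes tested 44.1% were called, with a median of -0.056, so the count of the pathway genes is near the background. Tlr4, the LPS receptor, had 1.24 ± 0.376 peaks per 100000 in hippocampus, against 2.18 ± 0.480 in frontal cortex (SD, n = 11 each, log2 difference -0.64, limma adjusted p = 5.95e-05). Chuk, the kinase IKK-alpha, had 3.64 ± 0.424 in hippocampus, against 4.74 ± 0.758 in frontal cortex (-0.34, limma adjusted p = 0.00125). Birc3, which encodes a ubiquitin ligase of TNF receptor signalling, and Tnip3, which encodes a partner of A20, were lower as well (-0.37 and -0.36, limma adjusted p = 0.00148 and 0.00146), and Traf6, a ubiquitin ligase downstream of Toll-like receptors, was higher (0.25, limma adjusted p = 0.00353). Among 20 target genes, 18 passed the minimum of 1 peak per library on average, and 12 were called between tissues, 3 higher and 9 lower, with a median of -0.18, beside 16.8% higher and 27.3% lower over all genes tested. Cxcl1, a chemokine gene, had 2.70 ± 0.364 peaks per 100000 in hippocampus, against 1.37 ± 0.292 in frontal cortex (0.78, limma adjusted p = 1.64e-07), and Ptgs2, which encodes cyclooxygenase 2, had 2.28 ± 0.393 in hippocampus, against 3.33 ± 0.489 in frontal cortex (-0.45, limma adjusted p = 1.68e-05).

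No gene of either list passed limma's test for LPS against saline in any contrast. At an unadjusted p under 0.05 there were 1, 2 and 6 of 34 pathway genes in hippocampus at 6, 12 and 24 h (5.15%, 6.51% and 7.24% of all genes tested), and 0, 3 and 2 in frontal cortex (5.96%, 6.25% and 11.7% of all genes tested). Of the 18 targets there were 0, 2 and 2 in hippocampus and 1, 0 and 4 in frontal cortex. The lowest p among the targets in frontal cortex at 24 h was that of Vcam1, an endothelial adhesion molecule (log2 difference 0.60, SE 0.19, limma adjusted p = 0.209). At Tlr4 the log2 difference between LPS and saline was 0.42 to 0.67 over the 6 contrasts, which share their saline libraries within a tissue (limma adjusted p of 0.403 to 0.990).

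Region markers followed the tissue labels in their sums, and all but Tbr1 did so singly. Summed over Zbtb20, Prox1 and Nr3c2, hippocampus libraries had 73.9 to 105 peaks per 100000 and frontal cortex libraries 40.3 to 53.3, and over Rorb, Cux2, Tbr1 and Fezf2 26.9 to 33.9 and 43.5 to 49.1. Microglial markers (6 genes) summed to 27 to 31.6 after LPS and 29.6 to 30.3 in saline in hippocampus, and to 30.7 to 33.2 and 28.7 to 31 in frontal cortex. Endothelial markers (5 genes) summed to 17.8 to 26.5 and 21.1 to 25.4 in hippocampus, and to 19.1 to 22.4 and 21.1 to 21.4 in frontal cortex. Astrocyte markers (4 genes) summed to 21.3 to 26.3 and 23.1 to 23.9 in hippocampus, and to 19.7 to 23.0 and 21.9 to 22.3 in frontal cortex. Markers of blood leukocytes (6 genes) summed to 13.1 to 14.3 and 14.4 to 15 in hippocampus, and to 13.2 to 16.4 and 12.3 to 16.6 in frontal cortex. No marker was at 0 in all libraries, and the part of these cells in the results above was not tested.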

How the data were processed

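Reads were paired-end of 50 bp, per the labels' protocols, and 1 more baseline animal was dropped for low depth, per the series' design text. Bowtie2 2.4.4, MACS2 2.2.7.1, Trim Galore 0.6.7 and FastQC 0.11.9 are named by the submitters' processing notes, with GRCm38 (mm10) as the build. A shift of reads for the transposase: not given in the sources used here. The authors deposited peaks per library, so each library is a replicate from its own animal within a tissue, with -log10 q and -log10 p values, a score and a fold over background for each peak. The score and the fold are the authors' values, relative to each library's own background. They served to rank peaks within a library or to describe them, and folds given side by side for different libraries are not scaled to each other or tested. In the 6 differential tables that the authors deposited, each region has a direction and a value taken as -10 times log10 of the FDR, without fold changes. Peak lists carry no read depth, so it is unknown, and no interval that needs it is given.

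Summits sharing 1 interval were counted as 1 peak. The 9 genes, the gene lists and the tests were chosen with earlier results of these data known. The naming rule took up to 3 windows per gene called between tissues and up to 2 with the largest difference after LPS, all of the authors' regions, up to 5 called genes per list and contrast with the lowest p (or, with none called, the 2 with the largest change), and the 3 genes of most like pattern. A selection of the list genes and of the windows with the largest difference after LPS is printed. The further called windows, up to 7 at a gene, were added after their values were seen. The fit used limma 3.58.1 in R 4.3.3 with 8 groups, a trended prior and genes with a mean of 1 peak or more per library. Windows present in 2 to 20 libraries were tested. Other steps ran in Python 3.11.15 with pandas 2.3.3, numba 0.67.0, scipy 1.17.1, matplotlib 3.10.9 and numpy 2.4.6, after the tests were tested on simulated data. Both tissues came from the same animals, per the labels, which pairs the libraries. In the counts per locus, the deviations of same-animal libraries from their group means correlated weakly (r of -0.0561 to 0.204, median 0.051, n = 11 pairs). The largest share of identical intervals between any 2 libraries was 0.124%. The gene table (RefSeq, GRCm38.p6) gives no strand. Strands came from the RefSeq promoter table and, for Nfkbiz, from the authors' labels. Alternatives were a flank of 5 kb, pseudocounts of 0.1 and 2, no filter, no scaling, every summit counted, covered bases, stricter or equal numbers of peaks, 1 bp of overlap, the animal as a block and leaving out each animal. For the peaks over starts, the stricter and equal-number alternatives were chosen after seeing the data.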

Additional observations from a re-analysis of the deposited data

Results flagged for a closer look

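At Relb the share of peaks at 12 h after LPS lay on opposite sides of saline in the tissues. In hippocampus the 3 libraries at 12 h had 4.15 to 4.42 peaks per 100000 and the saline libraries 4.56 and 5.18, a difference of means of -0.609. In frontal cortex the 3 libraries at 12 h had 4.61 to 5.03 and the saline libraries 4.53 and 4.56. The difference of the effects did not pass limma's test (log2 -0.23, SE 0.20, adjusted p = 0.997). At 24 h the shares lay below saline in both tissues, at 3.94 to 4.09 against 4.56 and 5.18 in hippocampus and at 4.13 to 4.51 against 4.53 and 4.56 in frontal cortex. In peaks not scaled to the library, frontal cortex had 10, 11 and 12 at 12 h and 12 and 10 in saline, so the opposite direction rests on the scaling.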

How the results depend on the processing

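Windows called towards hippocampus numbered 20, and 8 with only the 50000 strongest peaks of each library. Leaving out each animal gave 17 to 19 towards hippocampus and 6 to 8 towards frontal cortex. With the animal as a replicate block, 14 of the 20 and 6 of the 8 were called, and no other window.

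For peaks per locus between tissues, 2 genes were called, against 0 without scaling, 5 with every summit counted, 5 by covered bases, and 0 to 3 when each animal was left out. The counts of called members for LPS and for its difference between tissues were 0 under every alternative run. The replicate block was run for that difference and for the test over the LPS times, not for the single LPS contrasts within a tissue, whose groups hold different animals. The signs of the log2 differences between tissues were unsteady. Nfkb1, at -0.0016, turned to 0.083 with 5 kb flanks, 0.12 without scaling, 0.15 with every summit, 0.090 by covered bases, 0.11 with -log10 q of 5 or more, 0.33 with the 50000 strongest peaks, and ran from -0.048 to 0.044 without 1 animal. With the 50000 strongest peaks the sign also turned at Nfkb2 (0.11), Rela (-0.022), Nfkbib (0.016), Nfkbiz (0.83) and, for LPS at 24 h in frontal cortex, at Rel (0.42). With -log10 q of 5 or more it turned at Rel (0.24) and Nfkbiz (0.17), and by covered bases at Nfkbiz (0.019). Relb turned with 5 kb flanks (0.14) and without scaling (0.021), and Nfkbia without scaling (0.064), with every summit (0.052) and without 1 animal (0.0038, range from -0.097). The cause was not tested.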
